A study of Mus musculus with 7 samples.

Results

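Elastic fibres give connective tissue its recoil, and 10 genes that encode their elastin core, their microfibrils or proteins bound to either were read in whole soleus muscle of mice. The genes were taken by symbol from a list (Eln, Fbn1, Fbn2, Fbln1, Fbln2, Fbln5, Mfap2, Mfap4, Mfap5 and Efemp1). All 10 were among the 29869 gene symbols of the deposited table, and all 10 passed the filter that left 14033 genes for testing. The libraries came from 3 muscles labelled mdx/Runx1f/f (animals 359, 363 and 374) and 4 labelled mdx (animals 358, 361, 373 and 375), taken from mice 60 days old. Every animal carried mdx, the allele that leaves muscle without dystrophin and serves as a model of Duchenne muscular dystrophy. In the first group Runx1, the gene of a Runt-domain transcription factor, was floxed as well, and the labels give neither a Cre driver nor the deleted exons. The comparison asks which transcripts respond to Runx1 in dystrophic muscle, as far as the series title states its purpose.

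The labels disagree about the groups. The groups used here are those of the sample titles, while the description field ties most animal numbers to other samples and the series design text counts 3 mdx and 4 mdx/Runx1f/f muscles. Runx1, the targeted gene, had normalised counts of 919, 925 and 596 in the libraries labelled mdx/Runx1f/f, against 274, 273, 235 and 201 in those labelled mdx. It was higher in the group named for the floxed allele (log2 fold change 1.74, edgeR adjusted p = 0.00795), so libraries are called by their labels throughout and every direction rests on the titles. In the authors' deposited table the fold changes of Runx1 and of all 10 genes have the same sign as under the titles. The 7 libraries held 16218306 to 20847902 counts. Myh7, the slow myosin heavy chain gene that marks soleus fibres, was abundant in each library, at 41358 raw counts or more. Its normalised counts were 40503 to 133265 in libraries labelled mdx/Runx1f/f and 140992 to 275132 in those labelled mdx. Myh4, a fast myosin heavy chain gene, varied widely, at 1293 to 246072 in the first group and 739 to 8982 in the second. Neither gene was called (edgeR adjusted p = 0.139 for Myh7 and 0.0806 for Myh4).

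An elastic fibre is built on microfibrils, bundles of fibrillin molecules with smaller glycoproteins attached. Fibulins bring soluble elastin to this scaffold, and lysyl oxidases then crosslink it into an insoluble core. In skeletal muscle such fibres lie in the connective tissue around fibres, fascicles and vessels and are made mainly by fibroblasts and smooth muscle cells. Microfibrils also store latent transforming growth factor beta, and mutations of FBN1 cause Marfan syndrome in humans.

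Runx proteins bind DNA words built on TGTGG, so promoter sequences of the genes that were called are shown, to let the letters near each start be read beside the values. They are RefSeq windows on GRCm38.p6, from 250 bases before to 50 after a transcript start, written 5′ to 3′ on the gene's strand. Capitals mark TGTGG or its reverse complement CCACA and, in Mfap2, ACCGCA, the reverse complement of TGCGGT. RefSeq windows were read for 6 of the 10 genes, in 9 windows. No window was read for Eln, Fbn2, Mfap4 or Mfap5, which are named only.
Fbn1, chr2:125506389-125506688 (- strand): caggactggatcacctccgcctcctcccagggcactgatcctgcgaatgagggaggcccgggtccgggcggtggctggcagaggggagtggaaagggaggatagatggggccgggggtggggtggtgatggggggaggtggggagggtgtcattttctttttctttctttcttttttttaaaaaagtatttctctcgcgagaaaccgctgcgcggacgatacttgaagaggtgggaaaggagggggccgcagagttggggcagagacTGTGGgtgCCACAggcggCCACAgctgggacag
Fbln1, chr15:85205699-85205998 (+ strand): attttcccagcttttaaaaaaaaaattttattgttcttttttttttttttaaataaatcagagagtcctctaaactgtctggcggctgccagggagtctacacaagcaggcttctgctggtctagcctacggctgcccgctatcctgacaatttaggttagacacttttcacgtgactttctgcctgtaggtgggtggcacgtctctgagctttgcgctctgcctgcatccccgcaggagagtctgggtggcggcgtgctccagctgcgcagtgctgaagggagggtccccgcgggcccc
Fbln2, chr6:91212514-91212813 (+ strand): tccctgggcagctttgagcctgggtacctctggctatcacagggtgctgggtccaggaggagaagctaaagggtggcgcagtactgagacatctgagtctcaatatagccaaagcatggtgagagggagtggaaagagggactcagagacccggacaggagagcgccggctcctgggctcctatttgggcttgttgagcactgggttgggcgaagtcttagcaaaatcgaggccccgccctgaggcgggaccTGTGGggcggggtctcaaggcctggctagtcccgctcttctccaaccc
Mfap2, chr4:141010174-141010473 (+ strand): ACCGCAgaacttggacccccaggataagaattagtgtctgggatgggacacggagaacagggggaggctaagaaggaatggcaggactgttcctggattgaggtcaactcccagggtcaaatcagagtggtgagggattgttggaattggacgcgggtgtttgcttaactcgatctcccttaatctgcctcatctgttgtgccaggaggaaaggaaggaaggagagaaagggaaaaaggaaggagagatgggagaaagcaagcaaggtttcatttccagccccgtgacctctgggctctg
Efemp1, chr11:28852955-28853254 (+ strand): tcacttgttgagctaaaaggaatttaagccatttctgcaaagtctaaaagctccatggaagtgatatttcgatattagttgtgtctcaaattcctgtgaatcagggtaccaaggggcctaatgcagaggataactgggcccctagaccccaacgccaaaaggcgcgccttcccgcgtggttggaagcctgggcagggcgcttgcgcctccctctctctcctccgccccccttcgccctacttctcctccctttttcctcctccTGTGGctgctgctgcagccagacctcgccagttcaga

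The search covered both strands. TGTGG stood 3 times in the Fbn1 window, at 17, 25 and 35 (the place of the first letter, where 0 is the first of the window's last 50 bases), 1 time in that of Fbln2 at 2 and 1 time in that of Efemp1 at 13. A window of Fbln5, not shown, held it 2 times, at -209 and -89. In all, 4 of the 9 windows held TGTGG, as did 55.9% of 32851 promoter windows of the same length. The longer TGTGGT, which contains TGTGG, was in 0 of the 9 windows and in 16.8% of all windows. TGCGGT was in 1 of the 9, the printed window of Mfap2 at -250, its outermost letters, and in 6.45% of all. Mfap2 and Fbln1 each have a further window, not shown, that held none of these words. These matches describe letters and say nothing of binding.

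Of the 10 genes, 6 rose and 0 fell in libraries labelled mdx/Runx1f/f, with the threshold at an adjusted p of 0.05 in the quasi-likelihood test of edgeR, adjusted over 14033 genes by the method of Benjamini and Hochberg. Across all tested genes 5.10% were called higher and 1.85% lower. The 6 called genes were Fbn1, Fbln1, Fbln2, Mfap2, Mfap5 and Efemp1, and Eln, Fbn2, Fbln5 and Mfap4 were not called. The 10 log2 fold changes, all positive, lay between 0.63 and 1.82 with a median of 1.04, beside a median of -0.0016 over all tested genes. For 9 of the 10 genes the lowest library labelled mdx/Runx1f/f stood above the highest labelled mdx, and this held for 13.9% of all tested genes. DESeq2 called 9 of the 10 higher, where it called 10.7% of all genes higher, and 0 lower. An unadjusted p below 0.05 was reached by 9 genes in edgeR, all higher, and by 17.1% of all tested genes as higher and 12.4% as lower. In whole muscle, a change in the number of cells that make a transcript and a change in transcript per cell cannot be told apart. Without mdx/Runx1f/f replicate 2 the count of called genes was 2, where 1.22% of all genes were called higher. Without each of the other libraries in turn it was 4 to 6, where 1.57% to 4.60% of all genes were.

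**Figure D1:**
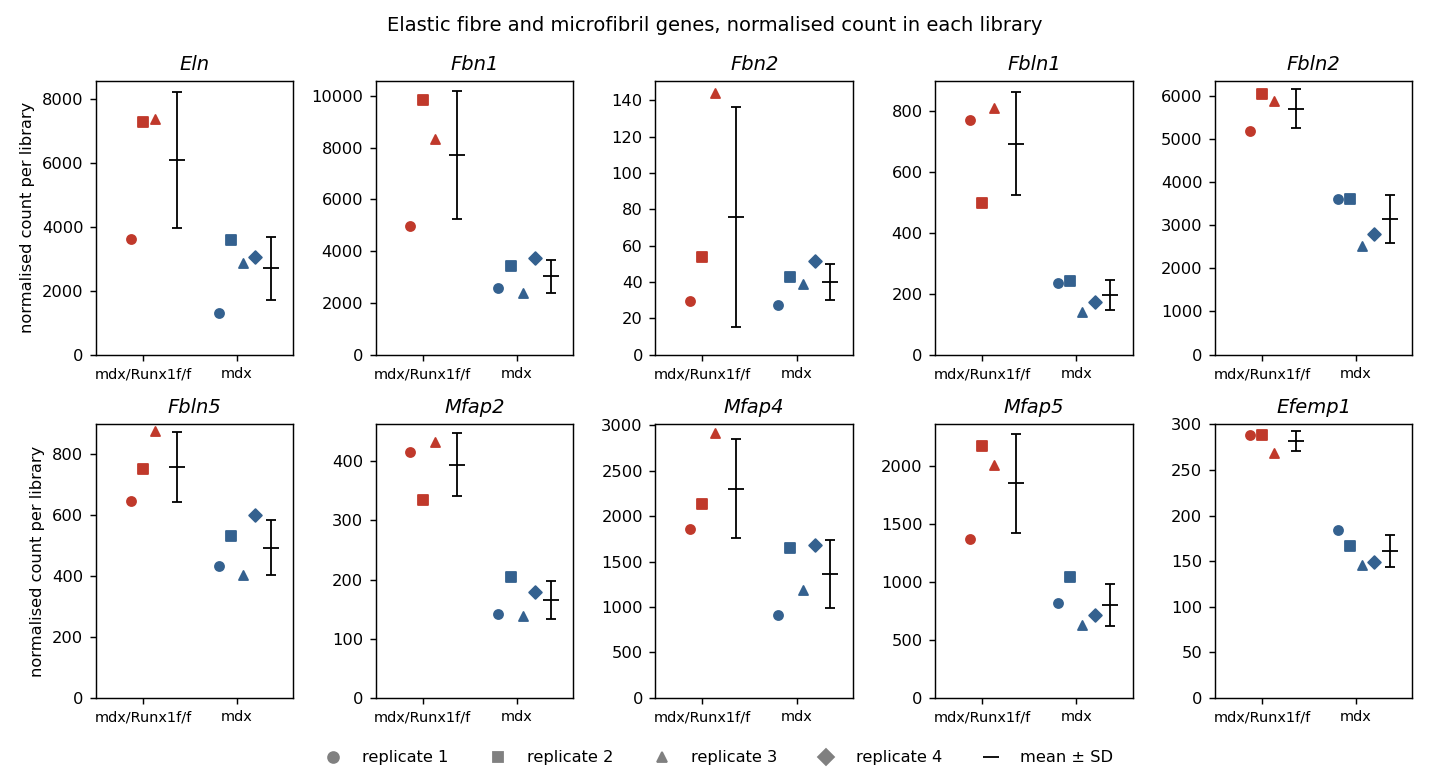
Normalised count (vertical axis, from 0) of each of the 10 genes in the 3 libraries labelled mdx/Runx1f/f (red, left) and the 4 labelled mdx (blue, right), with the symbol shape giving the replicate and the black bars beside the points the mean ± SD. The groups are apart for 9 genes and overlap for Fbn2, where mdx/Runx1f/f replicate 3 stands alone at 144.

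Eln encodes tropoelastin, the soluble monomer of the elastic core. Its normalised count was 3627, 7278 and 7372 in replicates 1 to 3 labelled mdx/Runx1f/f, against 1311, 3604, 2859.6 and 3058 in replicates 1 to 4 labelled mdx. The groups met almost edge to edge, since mdx/Runx1f/f replicate 1 lay just above mdx replicate 2, while the other two libraries of its group were about equal. The mean was 6093 ± 2135 (SD, n = 3) in libraries labelled mdx/Runx1f/f and 2708 ± 983 (SD, n = 4) in those labelled mdx, a 2.25-fold difference. The log2 fold change of 1.17 (SE 0.36) did not pass the threshold (edgeR adjusted p = 0.0800). Replicate 1 was the lowest library of either group for Eln. No single library decided that outcome in edgeR, as the adjusted p stayed between 0.0590 and 0.227 when each was left out. DESeq2 called the gene on the same counts (adjusted p = 0.0136).

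Fbn1 encodes fibrillin-1, the main protein of microfibrils after birth. Its libraries labelled mdx/Runx1f/f held 4988, 9827 and 8318 normalised counts, against 2576, 3423, 2397 and 3717 in those labelled mdx. All 3 values of the first group were above the 4 of the second. The mean was 7711 ± 2476 in libraries labelled mdx/Runx1f/f (SD, n = 3) against 3028 ± 641 in those labelled mdx (SD, n = 4), and the gene rose by 1.35 on the log2 scale (SE 0.25, edgeR adjusted p = 0.0250). The call was lost when either replicate 2 or 3 labelled mdx/Runx1f/f was left out (edgeR adjusted p = 0.0739 and 0.0524) and without mdx replicates 2 or 3 (0.0539 and 0.0714), while the log2 fold change stayed between 1.14 and 1.58. In GENCODE M21, 20.1% of the exon length of Fbn1 is shared with Gm9913 on the opposite strand. The strand setting of the counting is not given in the sources used here, so reads of both cannot be told apart there. The same holds for 3.30% of the exon length of Eln (Gm30003), 4.63% of that of Mfap4 (Mapk7) and 0.976% of that of Fbn2 (Gm26507).

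Fbn2 encodes fibrillin-2, the fibrillin most used in fetal tissue. It was the rarest of the 10, with 26 to 133 raw counts per library. The normalised counts were 29.4, 53.9 and 144 in libraries labelled mdx/Runx1f/f, against 27.5, 42.8, 38.6 and 51.3 in those labelled mdx. The groups overlapped, and a single library, mdx/Runx1f/f replicate 3, stood far above all others. The mean was 75.8 ± 60.5 in libraries labelled mdx/Runx1f/f (SD, n = 3) and 40.1 ± 9.92 in those labelled mdx (SD, n = 4). The log2 fold change of 0.91 (SE 0.50) was not called (edgeR adjusted p = 0.259), and without that library it was 0.06.

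Mfap2 and Mfap5 encode the microfibril-associated glycoproteins MAGP-1 and MAGP-2, which bind fibrillins. Mfap2 stood at 416, 334 and 433 normalised counts in libraries labelled mdx/Runx1f/f, against 142, 205, 138 and 179.7 in those labelled mdx. The groups stood apart, and the gene rose 2.38-fold, with a mean of 394 ± 52.6 in libraries labelled mdx/Runx1f/f (SD, n = 3) against 166 ± 32.0 in those labelled mdx (SD, n = 4). Its log2 fold change was 1.25 (SE 0.17, edgeR adjusted p = 0.0133), and the call was kept whichever library was left out. Mfap5 stood at 1367, 2175 and 2014 normalised counts in libraries labelled mdx/Runx1f/f, against 821, 1044, 626 and 718 in those labelled mdx. This pair of genes differed in its order within the first group: replicate 2 was the lowest library for Mfap2 and the highest for Mfap5. The groups of Mfap5 did not overlap either, with means of 1852 ± 427 in libraries labelled mdx/Runx1f/f (SD, n = 3) and 802 ± 180.0 in those labelled mdx (SD, n = 4). Mfap5 rose by 1.21 on the log2 scale (SE 0.21, edgeR adjusted p = 0.0205). Its call was lost without mdx/Runx1f/f replicate 2 or mdx replicates 3 or 4 (edgeR adjusted p = 0.0667, 0.0566 and 0.0565).

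Mfap4 encodes a fibrinogen-related glycoprotein that decorates elastic fibres. It stood at 1865, 2132 and 2913 normalised counts in libraries labelled mdx/Runx1f/f, against 911, 1653, 1192 and 1682 in those labelled mdx. The groups did not overlap, but the highest mdx libraries, replicates 2 and 4, came close to mdx/Runx1f/f replicate 1. The mean was 2303 ± 545 in libraries labelled mdx/Runx1f/f (SD, n = 3) and 1359.6 ± 374 in those labelled mdx (SD, n = 4). The log2 fold change of 0.77 (SE 0.24) was not called (edgeR adjusted p = 0.0853). DESeq2 called it (adjusted p = 0.0277).

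The fibulins are secreted glycoproteins with calcium-binding repeats of the epidermal growth factor type. Fbln1 encodes fibulin-1, which lies within elastic fibres and in basement membranes. It had the largest log2 fold change of the 10 genes, with 771, 498 and 808 normalised counts in libraries labelled mdx/Runx1f/f, against 235, 240.2, 139 and 173 in those labelled mdx. The groups stood far apart, with mdx/Runx1f/f replicate 2 the lowest of its group and mdx replicate 2 the highest of the other. The means were 692 ± 169 in libraries labelled mdx/Runx1f/f (SD, n = 3) and 197 ± 49.0 in those labelled mdx (SD, n = 4), and the gene rose 3.52-fold (log2 fold change 1.82, SE 0.24, edgeR adjusted p = 0.0116). The call was kept whichever library was left out, with log2 fold changes of 1.69 to 2.01.

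Fbln2 encodes fibulin-2, found in basement membranes and around elastic fibres. It held 5179.7, 6039.7 and 5884 normalised counts in libraries labelled mdx/Runx1f/f, against 3602, 3608, 2522 and 2799.7 in those labelled mdx. The groups did not overlap, and the first was tight, with a mean of 5701 ± 458 in libraries labelled mdx/Runx1f/f (SD, n = 3) against 3133 ± 557 in those labelled mdx (SD, n = 4). Fbln2 rose by 0.87 on the log2 scale (SE 0.15, edgeR adjusted p = 0.0210). Leaving out replicate 2 labelled mdx/Runx1f/f ended the call (edgeR adjusted p = 0.0667), as did leaving out mdx replicate 4 (0.0568).

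Efemp1 encodes fibulin-3, which binds extracellular matrix in fasciae and many other tissues. It was the steadiest of the 10 genes, at 288, 288 and 269 normalised counts in libraries labelled mdx/Runx1f/f, against 184, 167, 146 and 149 in those labelled mdx. The SD was 3.92% of the mean in libraries labelled mdx/Runx1f/f and 10.9% in those labelled mdx. The groups did not overlap, and the gene rose 1.74-fold by group means (log2 fold change 0.81, SE 0.12, edgeR adjusted p = 0.0149), and without mdx/Runx1f/f replicate 2 the call was lost (edgeR adjusted p = 0.0524).

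Fbln5 encodes fibulin-5, which mice need to assemble elastic fibres and which tethers elastin to cells. It held 644, 750.1 and 873 normalised counts in libraries labelled mdx/Runx1f/f, against 431, 532, 404 and 600.2 in those labelled mdx. The groups were apart by a narrow margin, with mdx replicate 4 near mdx/Runx1f/f replicate 1. The mean was 756 ± 114 in libraries labelled mdx/Runx1f/f (SD, n = 3) and 492 ± 90.8 in those labelled mdx (SD, n = 4). Its log2 fold change of 0.63 (SE 0.16) was the smallest of the 10 and was not called (edgeR adjusted p = 0.0578), while DESeq2 called it (adjusted p = 0.0124).

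In the authors' deposited table, made with their own test, 9 of the 10 genes had an adjusted p below 0.05. The share of all genes below that threshold in their output is not given here, so the count has no background beside it. The authors' deposited table gives log2 fold changes of 1.61 for Fbln1, 1.19 for Fbn1, 1.17 for Mfap2 and 0.93 for Eln. The same table gives 0.61 for Fbn2 with an adjusted p of 0.226.

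The animal numbers fall into a low series, 358 to 363, and a high series, 373 to 375, and the labels do not say what the gap stands for. Within animals 358 to 363, with 2 libraries a group, the log2 fold changes were 1.16 for Eln, 1.32 for Fbn1, 1.43 for Fbln1, 0.65 for Fbln2, 1.13 for Mfap2, 0.94 for Mfap5 and 0.73 for Efemp1. Within animals 373 to 375, with 1 library labelled mdx/Runx1f/f against 2 labelled mdx, they were 1.32, 1.45, 2.37, 1.15, 1.45, 1.59 and 0.87 for the same genes. Fbn2 had 0.27 in the low series and 1.68 in the high series. All 10 values were positive in either series, and the difference between the series was not tested. In the low series edgeR called 0 of the 10 and 0 of 14051 genes, while 7 of the 10 had an unadjusted p below 0.05 and a positive fold change, as did 11.8% of all genes. In the high series it called all 10, where 9.53% of all genes were called higher, and the lone library is assumed there to vary like the others. With the series as a covariate edgeR called 7 of the 10, where 8.88% of all genes were called higher, and when title numbers served as a block it called 2, where 1.71% were. With the columns joined through the description field, edgeR called 0 of the 10, where 0.0356% of all genes were called higher, and 0 of the 10 had an unadjusted p below 0.05. Under that join the 6 genes called by title had log2 fold changes of -0.11 (Fbn1), -0.23 (Fbln1), -0.30 (Fbln2), -0.14 (Mfap2), -0.27 (Mfap5) and -0.31 (Efemp1).

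Levels can be set between genes once counts are divided by gene length, here as RPKM, reads per kilobase of GENCODE M21 exon scaled to library depth. In libraries labelled mdx/Runx1f/f the order was Mfap4 at 70.83 ± 15.02 RPKM (SD, n = 3), Fbln2 at 53.2 ± 6.47, Eln at 44.8 ± 16.6, Fbn1 at 38.0 ± 13.7 and Mfap5 at 30.8 ± 8.19. Among these 5, each overlapped the next in its range over libraries. Mfap2 followed at 19.2 ± 1.54 RPKM (SD, n = 3), apart from both of its neighbours in that order, and then came Fbln1 at 9.31 ± 1.83, Efemp1 at 8.21 ± 0.721, Fbln5 at 6.48 ± 0.952 and Fbn2 at 0.336 ± 0.255. In libraries labelled mdx the same 5 genes led, with Mfap4 at 38.9 ± 11.2 RPKM (SD, n = 4) and Fbln2 at 27.2 ± 6.13, and Eln had 18.3 ± 6.75. Fbln1 was at 2.50 ± 0.736 RPKM there and by mean ranked below Efemp1 (4.37 ± 0.685) and Fbln5 (3.92 ± 0.798), whereas in the other group it ranked above both. In libraries labelled mdx/Runx1f/f its range, 7.20 to 10.5, overlapped that of Efemp1, 7.51 to 8.95. In those labelled mdx its range, 1.62 to 3.13, overlapped that of Fbln5, 2.97 to 4.74. Fbn2, at 0.166 ± 0.0407 RPKM, was last in either group, apart from every other gene.

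As shares of the 10 genes' summed normalised counts, Fbn1, Eln and Fbln2 together made up most of the counts in every library. These counts are not divided by gene length, so a long gene such as Fbn1 (12128 bp of exon) weighs more here than in RPKM. Mfap4 (1922 bp), first by RPKM, weighs less. Fbn1 took 26.01%, 33.5% and 28.7% in replicates 1 to 3 labelled mdx/Runx1f/f, against 25.2%, 23.6%, 22.9% and 28.3% in replicates 1 to 4 labelled mdx. Eln took 18.9%, 24.8% and 25.4% in the first group, against 12.8%, 24.8%, 27.3% and 23.3% in the second. The lowest Eln share, 12.8% in mdx replicate 1, went with the highest Fbln2 share, 35.2%. These shares overlap between the groups and were not tested.

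**Figure D2:**
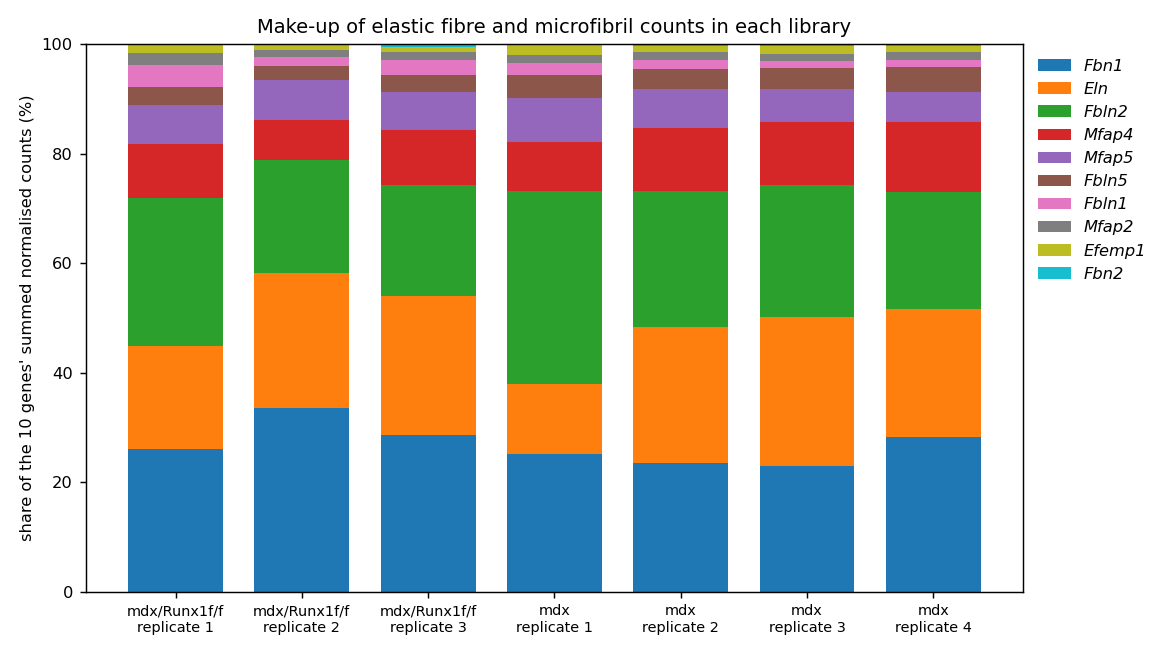
Share of each of the 10 genes in their summed normalised counts (vertical axis, percent) for the 3 libraries labelled mdx/Runx1f/f (left) and the 4 labelled mdx (right). Counts are not divided by gene length. Eln takes 12.8% in mdx replicate 1 and 18.9% to 27.3% in the other 6 libraries.

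The libraries of a group did not rank the same way for every gene. Within mdx/Runx1f/f, replicate 1 was the lowest for 7 of the 10 genes, Mfap2 and Fbln1 were lowest in replicate 2, and Efemp1 in replicate 3. Within mdx, replicate 3 was the lowest for 7 genes and replicate 1 for Eln, Fbn2 and Mfap4. The second mdx library was above its group's mean log2 level for all 10 genes.

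Genes that act on elastic fibres were read from 4 lists, beside shares over all tested genes of 5.10% called higher by edgeR, 17.1% higher at an unadjusted p below 0.05 and 10.7% called higher by DESeq2. Of 8 tested genes of further fibulin-family and assembly proteins, 3 rose and 0 fell in edgeR, 7 had an unadjusted p below 0.05 and DESeq2 called 5, all higher. The median log2 fold change was 1.00. Emilin1, which encodes a glycoprotein at the border of elastin and microfibrils, had 0.99 (SE 0.16, edgeR adjusted p = 0.0188). Efemp2 encodes fibulin-4, which mice need to make elastic fibres, and had 1.01 (SE 0.18, edgeR adjusted p = 0.0231). Hmcn1, the hemicentin gene, had 0.86 (edgeR adjusted p = 0.0424), and Emilin2 had 1.21 (SE 0.30) and was not called (edgeR adjusted p = 0.0509). Without mdx/Runx1f/f replicate 2 the count called was 0, where 1.22% of all genes were called higher. Without mdx replicate 4 it was 1, where 2.08% were.

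Of the 5 lysyl oxidase genes, whose enzymes crosslink elastin and collagen, 2 rose and 0 fell in edgeR, all 5 had a positive fold change with an unadjusted p below 0.05, and DESeq2 called 3, all higher. Loxl1, whose enzyme mice need to maintain elastic fibres, stood at 1362, 1766 and 1858 normalised counts in libraries labelled mdx/Runx1f/f, against 633, 928, 804 and 881 in those labelled mdx. The groups were well apart, and the log2 fold change was 1.04 (SE 0.16, edgeR adjusted p = 0.0157). Loxl2 had 1.18 (SE 0.18, edgeR adjusted p = 0.0161). Lox stood at 963, 2245 and 1357 normalised counts in the first group, against 511, 715, 189.9 and 236 in the second, and its log2 fold change of 1.89 (SE 0.48) was not called (edgeR adjusted p = 0.0540). Loxl4 had 0.57 (edgeR adjusted p = 0.126). The median of the 5 was 1.04, and without mdx/Runx1f/f replicate 2 the count called was 0, where 1.22% of all genes were called higher.

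Of 12 genes for latent TGF-beta binding proteins and microfibril-bound ADAMTS-type proteins, 1 rose and 0 fell in edgeR, 5 had an unadjusted p below 0.05 and DESeq2 called 4, all higher. The edgeR count of 1 in 12 is near the 5.10% over all genes and is no result about the list. The gene that rose was Ltbp1, which encodes a protein that anchors latent TGF-beta in the matrix. It stood at 1020.5, 956 and 835 normalised counts in libraries labelled mdx/Runx1f/f, against 539.9, 556, 477 and 566 in those labelled mdx (log2 fold change 0.82, SE 0.10, edgeR adjusted p = 0.0107). Ltbp4, which carries variants that modify muscular dystrophy in mice, had 0.43 (SE 0.13, edgeR adjusted p = 0.0743) and was not called. Thsd4 and Adamtsl3 had 0.62 and 0.74 (edgeR adjusted p = 0.0721 and 0.0776). The median of the list, 0.29, was lower than those of the other 3 lists, a difference that was not tested.

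Of 14 tested genes of enzymes that cut elastin and of its receptors, 3 rose and 0 fell in edgeR, 8 had an unadjusted p below 0.05 and DESeq2 called 6, all higher. Ctsk, the cathepsin K gene, had a log2 difference of 1.42 (SE 0.19, edgeR adjusted p = 0.0119). Mmp2, the gelatinase A gene, had 1.28 (SE 0.21, edgeR adjusted p = 0.0183), and Itgb3, an integrin subunit gene, had 1.15 (SE 0.20, edgeR adjusted p = 0.0223). Mmp14 had 1.30 (SE 0.32, edgeR adjusted p = 0.0504). The count called was 1 without mdx replicate 3, where 1.57% of all genes were called higher. It was 5 without mdx replicate 1, where 4.60% were.

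**Figure D3:**
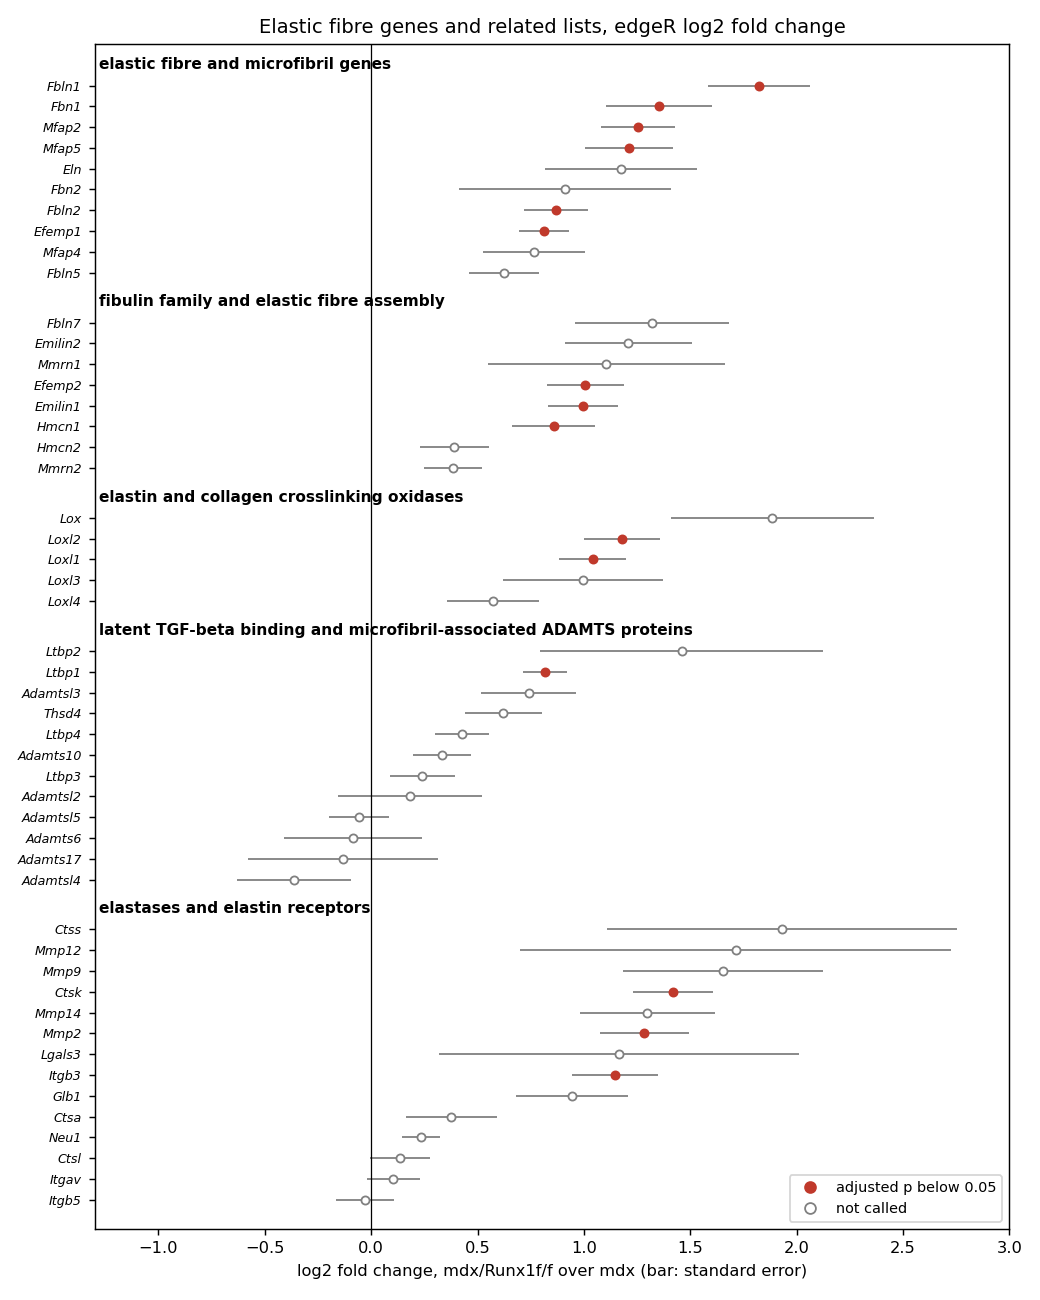
Log2 fold change (horizontal axis) of libraries labelled mdx/Runx1f/f over those labelled mdx for the 10 genes and 4 related lists, with bars of 1 standard error. Filled red points passed an adjusted p of 0.05 in edgeR. All 10 genes lie between 0.63 and 1.82, and 6 are filled.

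Markers of the cell types that a whole soleus holds were read beside these genes. Over all tested genes edgeR called 5.10% higher and 1.85% lower, and DESeq2 called 10.7% higher and 6.32% lower. At an unadjusted p below 0.05 in edgeR, 17.1% were higher and 12.4% lower. Of 12 markers of fibroblasts and fibro-adipogenic progenitors, the stromal cells of muscle, 9 rose and 0 fell in edgeR, 11 were higher at an unadjusted p below 0.05 and DESeq2 called 11 higher, with a median log2 fold change of 1.12. Their summed normalised count was 147227 to 171001 in libraries labelled mdx/Runx1f/f, against 53196 to 77005 in those labelled mdx. The 10 genes summed to 19175, 29376 and 29028 in the first group, against 10239, 14519, 10462 and 13128 in the second. Set against the stromal sum, the 10 genes came to 12.8%, 19.95% and 16.98% in libraries labelled mdx/Runx1f/f and to 15.8%, 20.4%, 19.7% and 17.05% in those labelled mdx. The stromal markers thus moved with the 10 genes and the ratio overlapped between groups. Col3a1, Col1a1 and Gsn weighed most in the stromal sum, with means of 53880, 33201 and 31142 in libraries labelled mdx/Runx1f/f. Col3a1 and Col1a1 are themselves matrix genes, of collagen chains, so the ratio is no measure of stromal cell number. The part of the stromal markers in the result was not tested.

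The other marker lists differed in direction and count. The shares over all tested genes given for the stromal markers apply to them too. In lists this short, an edgeR count of 1 is no result about the list. Of 9 smooth muscle markers edgeR called 0, with 4 higher and 1 lower at an unadjusted p below 0.05, while DESeq2 called 2 higher and 1 lower, and their mean log2 CPM was 6.32 to 6.92 in libraries labelled mdx/Runx1f/f and 6.18 to 6.55 in those labelled mdx. Of 7 endothelial markers edgeR and DESeq2 called 0, and 0 had an unadjusted p below 0.05. Of 7 tendon markers 1 rose in edgeR (Comp), 4 were higher at an unadjusted p below 0.05 and DESeq2 called 4 higher. Scx went the other way, with a log2 fold change of -0.47, and was not called (edgeR adjusted p = 0.239). The median log2 fold change of the 7 was 1.02. Their summed normalised count was 23472 to 41117 in libraries labelled mdx/Runx1f/f, against 5809.7 to 16002 in those labelled mdx. Thbs4 weighed most in it, with means of 21685 and 7540 in these groups. Of 8 macrophage markers 1 rose in edgeR, 6 were higher at an unadjusted p below 0.05 and DESeq2 called 4 higher, with a median log2 fold change of 1.61 and sums of 11185 to 31696 in libraries labelled mdx/Runx1f/f against 2727 to 11996 in those labelled mdx. Of 6 adipocyte markers 4 rose in edgeR, 5 were higher at an unadjusted p below 0.05 and DESeq2 called 5 higher, with a median log2 fold change of 2.25 and sums of 7451 to 13813 in libraries labelled mdx/Runx1f/f against 5713 to 7811 in those labelled mdx. Of 6 Schwann cell markers 2 rose in edgeR, 5 were higher at an unadjusted p below 0.05 and DESeq2 called 5 higher, with a median log2 fold change of 0.65 and sums of 2165 to 2374 in libraries labelled mdx/Runx1f/f against 1188 to 1770.0 in those labelled mdx. The sums of the macrophage and adipocyte lists overlapped between groups, and those of the tendon and Schwann cell lists did not. By mean log2 CPM, which weighs each marker alike, the adipocyte list did not overlap, at 4.20 to 5.89 in libraries labelled mdx/Runx1f/f and 2.97 to 3.91 in those labelled mdx. Of 13 muscle fibre markers, slow and fast together, edgeR called 0, with 1 higher and 4 lower at an unadjusted p below 0.05. DESeq2 called 1 higher and 3 lower, where it called 10.7% of all tested genes higher and 6.32% lower. The higher one at that unadjusted p was Myh4 (log2 fold change 4.76, SE 1.46). Its normalised counts ran from 1293 to 246072 in libraries labelled mdx/Runx1f/f, against 739 to 8982 in those labelled mdx. The lower ones were Myl3 (-1.36), Myh7 (-1.15), Atp2a2 (-1.03) and Tnni1 (-0.98). The sum of the fibre markers was 1270724 to 1447895 in libraries labelled mdx/Runx1f/f, against 1612155 to 2133674 in those labelled mdx. No tested marker was at 0 in any library, and the part of these lists in the result was not tested.

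**Figure D4:**
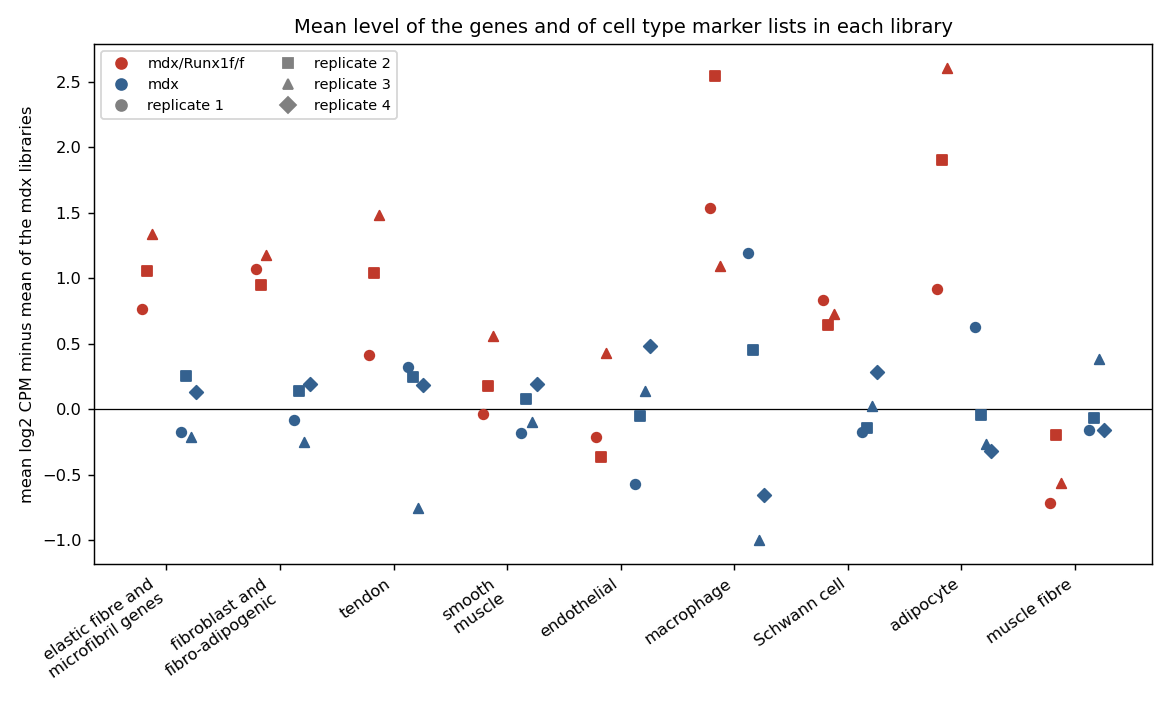
Mean log2 CPM of the 10 genes and of 8 marker lists in each library, minus the mean of the libraries labelled mdx (vertical axis), with libraries labelled mdx/Runx1f/f in red at the left of each pair and those labelled mdx in blue. For the 10 genes and for the stromal, tendon, Schwann cell and adipocyte lists all 3 red points lie above all 4 blue ones.

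The genes whose profiles over the 7 libraries lay nearest to those of Eln and Fbn1 were found by the root mean square distance between log2 CPM values centred on each gene's mean. Nearest to Eln were Fam167a (0.19), Pcdhb3 (0.20) and Kmo (0.26), where the median distance over all genes was 0.83. Pcdhb3 and Kmo averaged 16.7 ± 6.52 and 27.9 ± 11.6 normalised counts in libraries labelled mdx/Runx1f/f (SD, n = 3), against 8.60 ± 3.94 and 9.17 ± 2.86 in those labelled mdx (SD, n = 4), so their profiles rest on few reads. Nearest to Fbn1 were AI427809 (0.15), Fstl1 (0.17) and Itgb3 (0.18), where the median was 0.78. Raw counts were also few for AI427809, at 9 to 64, and for Fam167a, at 14 to 99. Fstl1, which encodes the secreted protein follistatin-like 1, stood at 8021, 11893 and 9909.7 normalised counts in libraries labelled mdx/Runx1f/f, against 3817, 4828, 2864 and 4331 in those labelled mdx. Within mdx/Runx1f/f both Fstl1 and Fbn1 were lowest in replicate 1 and highest in replicate 2, while within mdx Fstl1 was highest in replicate 2 and Fbn1 in replicate 4. Fstl1 was picked for this likeness, so its values are a description.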

How the data were processed

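RNA of whole soleus was sequenced from 7 mice, each title naming a separate animal. Per the labels' protocols, RNA came from a 5PRIME PerfectPure tissue kit, followed by Illumina TruSeq library preparation. The authors deposited 1 table with raw read counts per gene, made with TopHat2 2.0.10 and HTSeq on mm9, per the submitters' processing notes. The same table holds normalised counts, a signal that the authors obtained by dividing counts by size factors, as the values show. It also holds the authors' DESeq2 1.6.3 output, with a log2 fold change, a score (the test statistic), a p-value and an adjusted p-value per gene. For the authors' annotation, strand setting and filters, the sources used here say nothing.

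From the deposited counts, edgeR 4.0.16 in R 4.3.3 (TMM, filterByExpr, quasi-likelihood test) compared mdx/Runx1f/f with mdx, with Benjamini-Hochberg adjustment over 14033 genes and a threshold of 0.05. The standard error is the log2 fold change divided by the square root of F. The test was first tested on simulated data. DESeq2 1.42.0 was an alternative. RPKM used exon lengths from GENCODE M21, an annotation of another build than mm9. Overlaps of exons on opposite strands were computed within that annotation, and none of its coordinates were set against the deposited values. Log2 CPM used a prior count of 2. No 2 libraries were alike within sampling noise (lowest chi-square per degree of freedom 15.8 over 21 pairs). Of columns with per-sample values, 0 were left unused.

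The members, lists and markers were chosen with earlier results of these data known. Named were all 10 members, Runx1, the 4 genes of each related list with the smallest p, and the 3 genes nearest in profile to Eln and to Fbn1. Alternatives were another normalization, other filters, DESeq2, a replicate block, the animal number series, the description field and leaving out each library.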

Additional observations from a re-analysis of the deposited data

Results flagged for a closer look

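The tendon markers, read beside the 10 genes, had a mean log2 CPM of 4.04 in mdx replicate 3, against 4.99 to 5.12 in the other 3 libraries labelled mdx. The gap to the nearest library was 0.877 of the group's range, above Dixon's critical value for 4 samples. Of 24 groups of values looked at in this way this was the only such case, and chance gives about 1 in 20. The same library was the lowest of its group for 7 of the 10 elastic fibre genes.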

How the results depend on the processing

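For 9 of the 10 genes the log2 fold change was positive in all 15 alternatives that keep the titles' groups, and for Fbn2 in all 14 (it could not be fitted under the 10 CPM filter). RLE normalization and no filter each left 6 of the 10 called. The 10 CPM filter gave Fbln5 0.67 (edgeR adjusted p = 0.0452), called, and 2 genes of the latent TGF-beta list. DESeq2 called 1499 genes higher and 887 lower, 5 of the fibulin list, 4 of the latent TGF-beta list and 6 of the elastase list, and called Eln (1.18), Fbln5 (0.63) and Mfap4 (0.77). The animal number series as a covariate gave 1246 higher and 582 lower, 5, 2 and 6 in the same lists, and Fbln5 called at 0.65. Within animals 358 to 363, 0 genes were called higher and 0 lower, 0 of the 10 and 0 of each list, with Fbn1 at 1.32, Fbln1 1.43, Fbln2 0.65, Mfap2 1.13, Mfap5 0.94 and Efemp1 0.73. Within animals 373 to 375, 1361 were higher and 440 lower, with 10 of the 10, 6 of the fibulin, 5 of the oxidase, 3 of the latent TGF-beta and 9 of the elastase list, and Eln 1.32, Fbn2 1.68, Fbln5 0.80 and Mfap4 1.02 were called. The description field gave 5 higher and 3 lower, 0 of the 10, 0 of each list, and the reversed values -0.11 (Fbn1), -0.23 (Fbln1), -0.30 (Fbln2), -0.14 (Mfap2), -0.27 (Mfap5) and -0.31 (Efemp1). The fits within a series also held fewer samples, and the cause of these shifts was not tested.

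With the title number as a replicate block, 240 genes were higher and 80 lower, 2 of the 10 (Eln at 1.29 and Fbn1) and 1 of the elastase list. Fbln1 (1.77), Fbln2 (0.84), Mfap2 (1.31), Mfap5 (1.17) and Efemp1 (0.78) then had edgeR adjusted p-values of 0.0520 to 0.0627. Number 4 occurs only in mdx, so mdx replicate 4 added nothing to the group difference in the block fit. That fit thus rested on fewer libraries. Same-numbered libraries correlated in their deviations at -0.00687, 0.241 and 0.275 for numbers 1, 2 and 3. Each mdx/Runx1f/f library correlated best with another number, for number 3 by a small margin (0.290 with mdx replicate 4). With so few libraries these correlations cannot decide whether the numbers pair the animals.

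Leaving out 1 library at a time gave 173 to 641 genes higher and 17 to 209 lower, 2 to 6 of the 10, 0 to 3 of the fibulin, 0 to 2 of the oxidase, 1 to 1 of the latent TGF-beta and 1 to 5 of the elastase list. The log2 fold changes ran over 1.14 to 1.58 for Fbn1, 0.78 to 0.94 for Fbln2, 1.08 to 1.38 for Mfap5 and 0.77 to 0.87 for Efemp1. Fbn2 held the fewest reads, 26 to 133 raw counts, and its log2 fold change ran over 0.06 to 1.29.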

Other observations

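Fbln7, a fibulin gene chosen here after its values were seen, held 625, 442 and 1327 normalised counts in libraries labelled mdx/Runx1f/f, against 242, 334, 288 and 419 in those labelled mdx. Its highest library was mdx/Runx1f/f replicate 3, which was also the highest for Fbn2. Ltbp2, chosen in the same way, held 207, 964 and 414 in libraries labelled mdx/Runx1f/f, against 247, 369, 78.4 and 77.0 in those labelled mdx, so its groups overlapped.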
